A study of Homo sapiens with 4 samples.

Results

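The kinase LKB1, the partners it needs to be active and the subunits of its target AMPK were followed as 10 genes in AGS, a widely used line of human gastric adenocarcinoma cells. They are STK11, STRADA, STRADB, CAB39 and CAB39L for the LKB1 complex, and PRKAA1, PRKAA2, PRKAB1, PRKAB2 and PRKAG1 for AMPK. They were taken by symbol and found in 11 of 21214 transcript clusters tested, a cluster being a set of array probes that covers a transcript locus. STRADB had 2 clusters and each other gene had 1, and 0 clusters with several symbols held any of these genes. The set was selected on differences between ornithogalum and vehicle in these same arrays, among them the fall of STRADB, so the values below describe these genes and are no independent test of them.

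AGS cells were treated for 36 h with 0.01% ornithogalum, a homeopathic formulation named after a genus of bulb plants, or with its ethanol vehicle for the same time. RNA was hybridised to whole-transcript Affymetrix arrays (Human Gene 1.0 ST), with 2 arrays for ornithogalum and 2 for vehicle, labelled as biological replicates. All samples were the parental cell line with no genetic change named in the labels. Whether the replicates came from separate experiments is not given, so the spread between arrays may in part be technical.

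LKB1, encoded by STK11, is a tumour suppressor kinase mutated in Peutz-Jeghers syndrome, in which polyps form along the stomach and gut. It becomes active only when bound to a STRAD pseudokinase and to the scaffold protein MO25, and then phosphorylates the activation loop of AMPK and of related kinases. AMPK senses falling energy supply. It is a heterotrimer of a catalytic alpha, a scaffolding beta and a nucleotide-binding gamma subunit, and when AMP or ADP binds the gamma subunit it restrains biosynthesis and favours catabolism. Each position in these complexes can be filled by products of paralogous genes: STRADA or STRADB, CAB39 or CAB39L for MO25, PRKAA1 or PRKAA2 for alpha, PRKAB1 or PRKAB2 for beta, and PRKAG1, PRKAG2 or PRKAG3 for gamma.

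The promoter windows of the genes that changed are shown first, because several lie against a neighbouring gene that was also measured. They are RefSeq sequences on GRCh38.p14, 250 bases before to 50 after the annotated start, read 5′ to 3′ on the gene's strand. The build behind the array's own annotation is not given in the sources used here. Of the 10 genes, 9 had a window, and the STRADA promoter is not used here. Capitals mark matches, on either strand, to the TATA box TATAAA, the CCAAT box, the GC box GGGCGG, the E-box CACGTG, the cyclic AMP response element TGACGTCA or the ETS site CCGGAAGT, which share no letters with each other in these windows.
STRADB promoter, chr2:201451490-201451789, plus strand: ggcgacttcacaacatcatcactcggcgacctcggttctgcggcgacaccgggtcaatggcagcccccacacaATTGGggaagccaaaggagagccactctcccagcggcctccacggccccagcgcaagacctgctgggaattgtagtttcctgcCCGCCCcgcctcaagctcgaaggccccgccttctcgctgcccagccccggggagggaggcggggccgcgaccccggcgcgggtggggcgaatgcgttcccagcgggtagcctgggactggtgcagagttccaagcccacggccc
CAB39L promoter, chr13:49401493-49401792, minus strand: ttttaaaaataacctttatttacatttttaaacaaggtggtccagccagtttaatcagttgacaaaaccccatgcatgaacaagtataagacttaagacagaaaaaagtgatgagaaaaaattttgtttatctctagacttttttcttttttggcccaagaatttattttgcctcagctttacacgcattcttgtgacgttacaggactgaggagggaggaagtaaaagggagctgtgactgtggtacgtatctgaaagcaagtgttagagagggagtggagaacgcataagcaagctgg
PRKAB1 promoter, chr12:119667883-119668182, plus strand: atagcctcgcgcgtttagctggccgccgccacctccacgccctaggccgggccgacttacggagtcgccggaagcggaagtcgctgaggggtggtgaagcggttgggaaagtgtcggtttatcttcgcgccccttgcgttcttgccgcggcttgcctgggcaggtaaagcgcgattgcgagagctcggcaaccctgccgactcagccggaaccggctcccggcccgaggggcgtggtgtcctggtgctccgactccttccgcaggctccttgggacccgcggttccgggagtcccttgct
PRKAB2 promoter, chr1:147172421-147172720, minus strand: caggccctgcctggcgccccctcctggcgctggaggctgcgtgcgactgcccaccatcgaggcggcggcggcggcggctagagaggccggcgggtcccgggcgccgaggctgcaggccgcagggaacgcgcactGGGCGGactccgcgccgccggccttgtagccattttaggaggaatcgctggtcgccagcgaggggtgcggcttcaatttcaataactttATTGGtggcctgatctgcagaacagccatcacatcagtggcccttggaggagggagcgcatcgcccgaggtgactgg
PRKAG1 promoter, chr12:49018727-49019026, minus strand: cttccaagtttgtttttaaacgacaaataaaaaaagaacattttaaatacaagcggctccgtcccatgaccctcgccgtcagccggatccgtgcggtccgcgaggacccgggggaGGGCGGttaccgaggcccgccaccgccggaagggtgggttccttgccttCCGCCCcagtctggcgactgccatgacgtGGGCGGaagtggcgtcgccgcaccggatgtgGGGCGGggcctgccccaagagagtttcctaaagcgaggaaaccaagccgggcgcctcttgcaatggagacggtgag

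STRADB and PRKAB2 each held CCAAT and GGGCGG once, PRKAG1 held GGGCGG 4 times, and CAB39L and PRKAB1 held none of the 6 motifs. Across all 35116 windows in the RefSeq table GGGCGG was present in 45.0%, CCAAT in 34.6%, TATAAA in 11.5%, CACGTG in 7.26%, CCGGAAGT in 4.14% and TGACGTCA in 1.85%. These matches are descriptions of letters and say nothing of factor binding. Base composition separated the CAB39L window, taken at a start inside the annotated gene, from the others. Its window had 37.7% G and C with 4 CpG dinucleotides, and 7.84% of all windows had a G and C content as low or lower. The STRADB window had 69.0% with 26 CpG, PRKAB1 67.7% with 35, PRKAB2 68.7% with 30 and PRKAG1 61.7% with 29, against a median of 58.7% over all windows. The CAB39 paralogue had windows at 2 starts, with 72.3% and 78.0%. RefSeq also lets the CAB39L gene extend upstream of the start used for this window. That start is 42732 bases from the start of the neighbouring gene SETDB2, while the annotated CAB39L gene reaches to 210 bases from SETDB2. The sequence at that further edge is not used here, so the low G and C content describes this window and not other starts of CAB39L.

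Values are log2 expression as the authors deposited it, where a step of 1 is a doubling. The median over tested clusters was 4.48 and 4.62 on the ornithogalum arrays, against 4.71 and 4.70 on the vehicle arrays. The within-group SD, taken as the square root of the mean variance over clusters, was 0.258 for ornithogalum and 0.140 for vehicle. Epithelial markers matched the labelled cell type, with KRT8, a keratin of simple epithelia, at 10.37 and 10.38 on the ornithogalum arrays, against 10.44 and 10.59 on the vehicle arrays. KRT19, also a keratin, was the 1 marker of 6 epithelial, 5 fibroblast, 4 leukocyte and 4 endothelial ones measured that passed the threshold, 2.63-fold lower in ornithogalum. The summed linear level of the fibroblast markers was 87.2 and 87.6 on the ornithogalum arrays, against 83.3 and 87.5 on the vehicle arrays, and that of the endothelial markers 34.0 and 39.4, against 34.6 and 35.3. The leukocyte sum, 3348 and 3434 against 3467 and 3491, was nearly all LYZ, the lysozyme gene, which gastric glands also express, while PTPRC, the pan-leukocyte marker, lay at 1.74 and 1.44 in ornithogalum and 1.45 and 1.58 in vehicle. Arrays have no read depth, and their number limits the precision.

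In ornithogalum-treated cells some genes of the complexes fell and others rose. STRADB fell about 7-fold and the AMPK gamma gene PRKAG1 2.39-fold, while CAB39L rose 5.02-fold and both AMPK beta genes, PRKAB1 and PRKAB2, rose 1.63-fold and 1.73-fold. STK11 itself and both catalytic AMPK genes did not pass the threshold. A gene is said to be higher or lower, or to have risen or fallen, with ornithogalum only where its Benjamini-Hochberg adjusted p was under 0.05 in a limma fit over all tested clusters. By that rule 6 of the 11 clusters were called, 3 higher and 3 lower, with adjusted p from 0.00336 to 0.0188. Over all clusters tested, 19.2% were called, 6.57% higher and 12.6% lower, and since the genes were chosen with this contrast known nothing is read from the difference in share. With every array centred on its median, the whole table had 2238 higher and 1898 lower calls instead of 1393 and 2683, and the 11 clusters still had 3 and 3. The groups did not overlap in 9 of the 11 clusters, 5 with ornithogalum higher and 4 with it lower, against 62.2% of all clusters, 32.0% and 30.2%. The median log2 difference of the 11 clusters was 0.11, and that of all clusters was 0.04.

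The calls rested on the vehicle pair: without vehicle replicate 1, or without vehicle replicate 2, limma called 0 of the 11 clusters and 0 of the whole table, with 6 of the 11 at an unadjusted p under 0.05 each time, beside 19.8% and 18.8% of all clusters. Without ornithogalum replicate 1 the log2 difference was -2.67 for STRADB, in its cluster of higher mean, and 2.59 for CAB39L. Without ornithogalum replicate 2 these differences were -2.92 and 2.06. In bulk samples fewer expressing cells and less RNA per cell cannot be told apart.

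**Figure D1:**
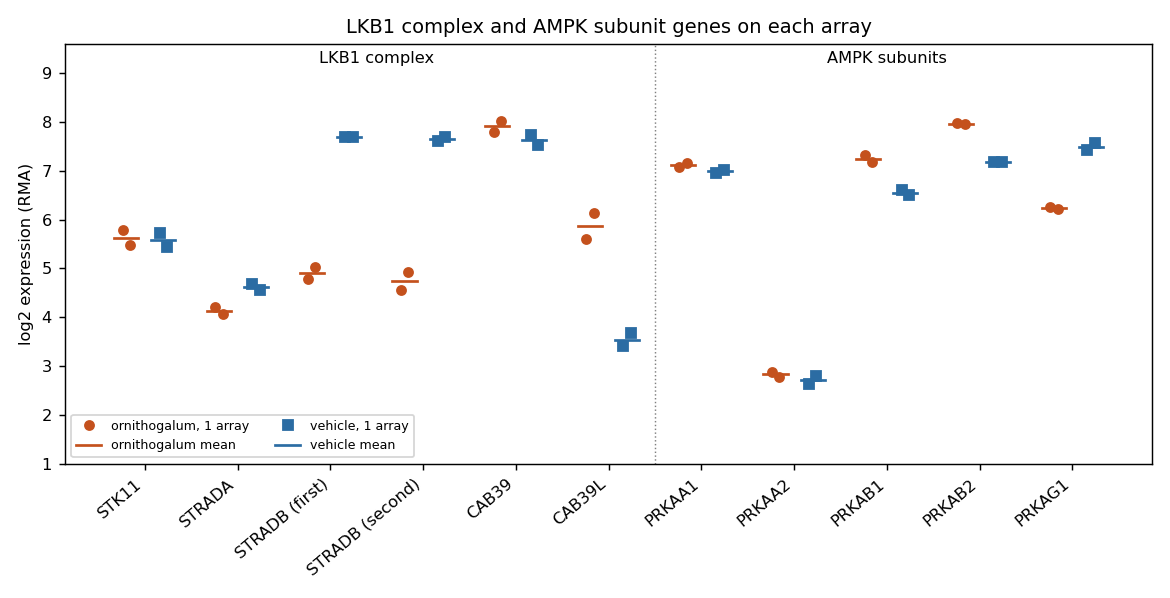
Log2 expression (RMA) of each cluster of the LKB1 complex and AMPK subunit genes, with orange circles for the 2 ornithogalum arrays, blue squares for the 2 vehicle arrays and short lines for the group means. The ornithogalum points lie below the vehicle points for both STRADB clusters and PRKAG1 and above them for CAB39L, PRKAB1 and PRKAB2, while those of STK11 and PRKAA2 overlap.

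The STRAD pseudokinases bind LKB1 and hold it in an active shape without phosphorylating substrates themselves. STRADB, also known as ILPIP, had 4.78 and 5.03 on the ornithogalum arrays, against 7.70 and 7.70 on the vehicle arrays, in its cluster of higher mean. Its second cluster had 4.55 and 4.93 in ornithogalum, against 7.61 and 7.68 in vehicle. Both treated arrays lay far below both vehicle arrays in each cluster. The log2 differences were -2.80 (SE 0.13) and -2.91 (SE 0.16), which are 6.95-fold and 7.49-fold lower, the 5th and the 2nd largest falls of all 21214 clusters. The 2 clusters carry the same 6 transcript accessions in the platform annotation. The number of the second cluster, 8047443, lies between those of CASP8 and CDK15, genes near STRADB on chromosome 2. That of the first, 7901336, does not, and lies nearer 7901720, the cluster of PRKAA2 on chromosome 1. The first may thus represent sequence away from the STRADB gene. Whether the clusters share probes or lie at the same locus was not tested, so they count as 1 gene measured by related probe sets.

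STRADA, the better studied paralogue, which also helps to hold LKB1 in the cytoplasm, had 4.21 and 4.06 on the ornithogalum arrays, against 4.67 and 4.56 on the vehicle arrays. The treated arrays were again the lower ones and the groups did not overlap. The log2 difference of -0.48 (SE 0.12, 95% interval -0.80 to -0.16) missed the threshold, with an adjusted p = 0.0579 in limma, and the adjusted p ran from 0.0442 without ornithogalum replicate 1 to 0.359 without vehicle replicate 1. The change of STRADB minus that of STRADA was -2.32 on the log2 scale. With 2 arrays a group no exact permutation test of that difference can reach the threshold, and it is given as a description.

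MO25, the scaffold that locks STRAD and LKB1 together, is encoded by CAB39 (MO25 alpha) and CAB39L (MO25 beta). CAB39L had 5.61 and 6.13 on the ornithogalum arrays, against 3.40 and 3.68 on the vehicle arrays. Its vehicle values lay under the median of their arrays and its treated values above it, and the groups were far apart. The log2 difference was 2.33 (SE 0.22), or 5.02-fold higher, the 19th largest rise of all 21214 clusters. The ornithogalum arrays differed from each other more here than for any other of the 11 clusters, with differences from the vehicle mean of 2.06 and 2.59.

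CAB39 had 7.80 and 8.02 on the ornithogalum arrays, against 7.74 and 7.53 on the vehicle arrays. The treated arrays were slightly the higher ones. Its log2 difference of 0.28 (SE 0.15, 95% interval -0.10 to 0.65) did not pass the threshold. The change of CAB39 minus that of CAB39L was -2.05 on the log2 scale, again a description with no test.

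STK11, the catalytic gene of the complex, had 5.79 and 5.48 on the ornithogalum arrays, against 5.72 and 5.43 on the vehicle arrays. The groups overlapped, and the arrays within each group differed by more than the group means did. The log2 difference was 0.05 (SE 0.17, 95% interval -0.39 to 0.50), and its sign turned when ornithogalum replicate 1 or vehicle replicate 2 was left out.

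**Figure D2:**
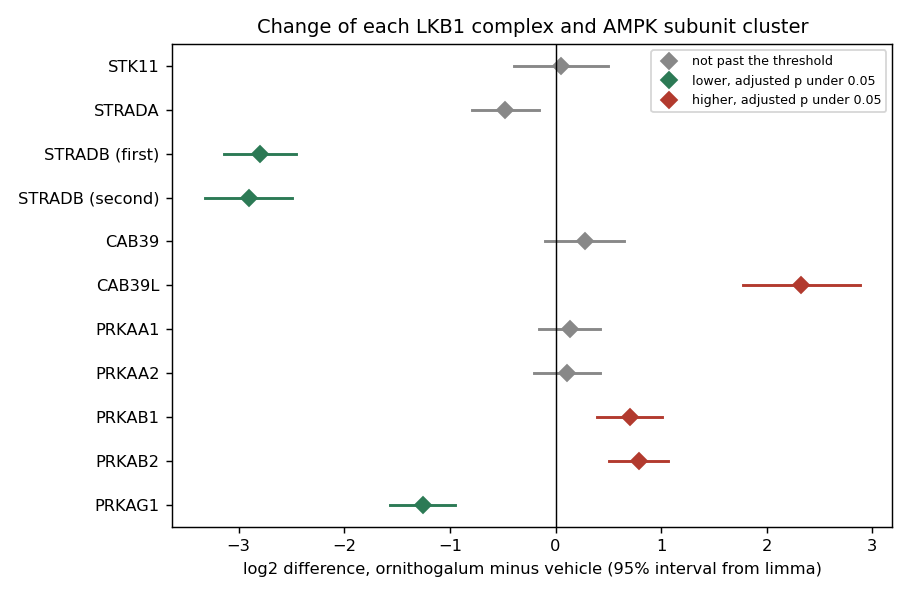
Log2 difference, ornithogalum minus vehicle, of each of the 11 clusters (diamonds) with its 95% interval from limma (bars), in red where higher and in green where lower at an adjusted p under 0.05 and in grey otherwise. STRADB at -2.80 and -2.91 and CAB39L at 2.33 stand at opposite ends, and the intervals of STK11, CAB39, PRKAA1 and PRKAA2 include 0.

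The alpha subunits carry the AMPK kinase domain and the threonine that LKB1 phosphorylates. PRKAA1, encoding alpha-1, had 7.09 and 7.15 on the ornithogalum arrays, against 6.96 and 7.02 on the vehicle arrays. The groups did not overlap, but the log2 difference was only 0.13 (SE 0.11, 95% interval -0.16 to 0.42) and did not pass. PRKAA2, encoding alpha-2, the form prominent in skeletal and heart muscle, had 2.87 and 2.78 in ornithogalum, against 2.64 and 2.79 in vehicle. These values were low for the table, at the 15.6th percentile of cluster means, and the groups overlapped. The log2 difference was 0.11 (SE 0.12, 95% interval -0.20 to 0.42). It turned to -0.03 after quantile scaling and after cyclic loess.

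The beta subunits join alpha to gamma and carry a glycogen-binding module. Both beta genes rose. PRKAB2, encoding beta-2, had 7.98 and 7.96 on the ornithogalum arrays, against 7.19 and 7.17 on the vehicle arrays. PRKAB1, encoding beta-1, had 7.32 and 7.19 in ornithogalum, against 6.60 and 6.50 in vehicle. In each gene both treated arrays were above both vehicle arrays. The log2 differences were 0.79 (SE 0.11) for PRKAB2 and 0.70 (SE 0.12) for PRKAB1, and the difference between these changes was 0.09. PRKAB1 missed the threshold, with an adjusted p = 0.0528 in limma, when all 33297 clusters of the table were tested together, and elsewhere its adjusted p ran from 0.00245 to 0.0338 apart from the fits without a vehicle array, which gave 0.149 and 0.196.

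The gamma subunits bind AMP, ADP and ATP and so carry the energy sensor. PRKAG1, encoding gamma-1, the most widely expressed form, had 6.26 and 6.21 on the ornithogalum arrays, against 7.42 and 7.57 on the vehicle arrays. The treated arrays agreed closely and both lay more than 1 unit below the vehicle arrays. The log2 difference was -1.26 (SE 0.12), or 2.39-fold lower. The other gamma genes, which stood in a list of AMPK inputs, did not pass. PRKAG2 had 5.41 and 5.22 in ornithogalum, against 5.08 and 5.19 in vehicle, a log2 difference of 0.18 (SE 0.13). PRKAG3 had 3.98 and 4.22 in ornithogalum, against 3.98 and 4.18 in vehicle, a log2 difference of 0.02 (SE 0.15), so that of the gamma genes PRKAG1 alone passed, and the difference between these genes was not tested.

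The genes beside each of the 10 were taken from the RefSeq gene table, 1 on each side with a single-symbol cluster. Of these 20 neighbours 1 rose and 4 fell, beside 6.57% higher and 12.6% lower over all clusters. SP100 beside CAB39 and CARD6 beside PRKAA1 fell and TTC33 beside PRKAA1 rose, though CAB39 and PRKAA1 did not pass. TRAK2 and CHD1L were the others that fell. TRAK2, which encodes an adaptor for mitochondrial transport along microtubules, lies beside STRADB and starts 282 bases away on the opposite strand, so that 219 of the 300 bases of the STRADB window printed above also belong to the TRAK2 window. TRAK2 had 3.94 and 4.46 on the ornithogalum arrays, against 6.31 and 6.31 on the vehicle arrays. It fell with STRADB, with a log2 difference of -2.11 (SE 0.19), or 4.32-fold lower, adjusted p = 0.00449 in limma. The gene on the other side of STRADB, CATSPERT, had 2.07 and 1.75 in ornithogalum, against 1.47 and 1.69 in vehicle, and did not pass.

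PRKAB2 lies head to head with CHD1L, a chromatin remodeller gene with 3 starts in the RefSeq table. One start is 277 bases from that of PRKAB2, with 224 bases shared by their windows, and the others are 70214 and 70670 bases away and share 0. The pair moved in opposite directions. CHD1L had 5.59 and 5.39 on the ornithogalum arrays, against 6.10 and 6.06 on the vehicle arrays, a log2 difference of -0.59 (SE 0.13, adjusted p = 0.0347 in limma). The fall of CHD1L lost its call in 7 of the 14 alternatives, among them the replicate block (adjusted p = 0.0568), quantile scaling (0.109), cyclic loess (0.0832), median centring (0.113) and the fit of all 33297 clusters (0.0827). RNVU1-8, a small nuclear RNA gene on the other side of PRKAB2, did not pass and had one treated array, 3.63, well above the other 3 values of 2.26 in ornithogalum and 2.10 and 2.25 in vehicle.

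Neighbours of the other called genes did not pass. Beside CAB39L, SETDB2, a histone methyltransferase family gene, had a log2 difference of -0.11 (SE 0.18) and CDADC1 one of 0.18 (SE 0.13). Beside PRKAB1, CIT, the citron kinase gene, had -0.39 (SE 0.12) and CCDC60 had -0.05 (SE 0.25). CIT was called lower in some alternatives, among them the brighter clusters (adjusted p = 0.0291 in limma) and a variance prior that follows intensity (0.035). It was not called in others, such as quantile scaling (0.133). Beside PRKAG1, KMT2D, a histone methyltransferase gene, had 0.10 (SE 0.11) and DDN had 0.17 (SE 0.14). RefSeq also annotates antisense genes over PRKAB1 and PRKAG1, and whether the probes of those clusters read them was not tested.

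**Figure D3:**
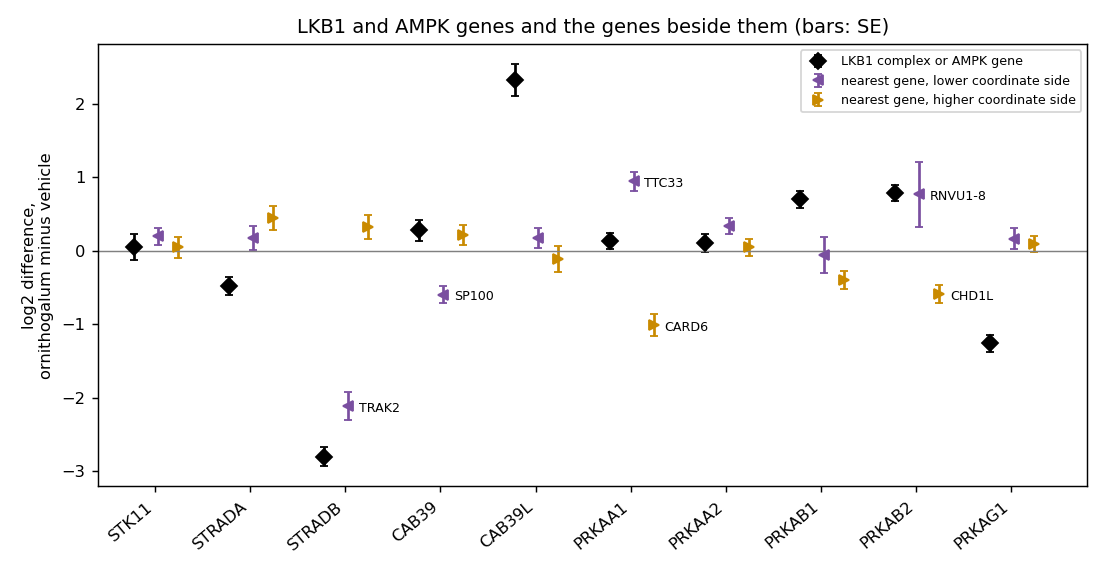
Log2 difference, ornithogalum minus vehicle, with its SE, of each LKB1 complex or AMPK gene (black diamonds) and of the nearest measured gene on the side of lower coordinates (purple) and of higher coordinates (yellow), with names printed beside neighbours that differ by more than 0.5. TRAK2 at -2.11 lies near STRADB at -2.80, and CHD1L at -0.59 lies opposite PRKAB2 at 0.79.

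Among clusters of other genes, those whose 4 values followed STRADB most closely, by Euclidean distance after each had its own mean removed, were those of DDX60, an interferon-induced helicase gene, at 0.0581, the apolipoprotein gene APOL1 at 0.0918, the cytosolic isocitrate dehydrogenase gene IDH1 at 0.152, and TIMMDC1 and HPS3, both at 0.188. The second STRADB cluster itself lay at 0.149. For CAB39L they were PMAIP1, which promotes apoptosis, at 0.299, the collagenase gene MMP1 at 0.338, THAP1 at 0.339, NOCT at 0.405 and LOC100134868 at 0.439. The distances are in log2 units over 4 arrays of the same contrast, so they rank resemblance and carry no test.

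Around the core genes, 6 lists of pathway genes held 68 entries, of which 62 had a single-symbol cluster. Of these, 11 were called higher and 9 lower, 20 in all, against 6.57% higher and 12.6% lower over the table. After median centring 14 were called higher and 5 lower, and after quantile scaling 13 and 6. As the lists were chosen with earlier results of these data known, nothing is read from the share called in any list. Of 5 other AMPK inputs limma called 0, with 1 at an unadjusted p under 0.05 and a median log2 difference of -0.28. With the replicate block, and after cyclic loess, limma called 1 lower each time. CAMKK1, which like CAMKK2 encodes a calcium-dependent kinase that phosphorylates AMPK, had the largest difference of these at -0.70 (SE 0.20), with 3.19 and 3.62 in ornithogalum, against 3.93 and 4.29 in vehicle. Of 11 other kinases activated by LKB1, 1 rose and 1 fell, with a median of 0.26. SNRK, an AMPK-related kinase gene, had 7.08 and 7.50 in ornithogalum, against 6.52 and 6.58 in vehicle, and rose 1.67-fold. MARK4, a microtubule affinity-regulating kinase gene, fell 1.40-fold, and did not pass after median centring (adjusted p = 0.123) in limma.

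MO25 also binds and activates other kinases of the germinal centre and SPAK families. Of 5 such genes 1 was higher and 1 lower, and the median was -0.07. STK26 had 7.47 and 7.64 on the ornithogalum arrays, against 6.77 and 6.60 on the vehicle arrays, and rose 1.82-fold. STK25 had 5.81 and 5.92 in ornithogalum, against 6.48 and 6.50 in vehicle, and fell 1.54-fold, with an adjusted p = 0.0514 in limma after median centring. STK24, OXSR1 and STK39 did not pass.

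Among 19 genes of AMPK substrates 3 rose and 7 fell, beside 6.57% higher and 12.6% lower over all clusters. Their median log2 difference was -0.03, and after quantile scaling or median centring 4 were higher and 5 lower. FNIP1, which encodes a partner of folliculin that AMPK phosphorylates, had 7.87 and 7.89 in ornithogalum, against 6.77 and 6.66 in vehicle, and rose 2.25-fold. MFF, a mitochondrial fission factor gene, had 6.21 and 6.24 in ornithogalum, against 7.38 and 7.21 in vehicle, and fell 2.11-fold. The paralogues TBC1D1 and TBC1D4, regulators of glucose transporter traffic, fell 1.90-fold and 1.82-fold. RPTOR, which encodes the defining subunit of mTORC1, had 4.58 and 4.65 in ornithogalum, against 5.33 and 5.42 in vehicle, and fell 1.70-fold. TSC2, which encodes the partner of the TSC1 product, had 5.42 and 5.44 in ornithogalum, against 5.92 and 5.93 in vehicle, and fell 1.41-fold, a call lost in 7 of the 14 alternatives, among them quantile scaling (adjusted p = 0.133 in limma) and median centring (0.117). The genes that rose and those that fell stand in the same list because AMPK phosphorylates their products, and their levels need not follow its activity.

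The 14 genes of mTORC1, its regulators and the sestrins had a median log2 difference of 0.38, beside 0.04 over all clusters. Of these genes 5 were higher and 0 lower, beside 6.57% and 12.6% over all clusters, and also 0 lower at an unadjusted p under 0.05. This count leaves out RPTOR and TSC2, which stand among the AMPK substrates and fell, and without ornithogalum replicate 2 it was 5 higher and 1 lower. The sestrins restrain mTORC1 and have been linked to AMPK. SESN1 had 7.82 and 7.90 on the ornithogalum arrays, against 6.55 and 6.41 on the vehicle arrays, and rose 2.60-fold. SESN2 had 6.11 and 6.12 in ornithogalum, against 5.26 and 5.17 in vehicle, and rose 1.87-fold. DDIT4, which encodes a stress-induced inhibitor of mTORC1, rose 1.63-fold and TSC1, whose product keeps the GTPase RHEB inactive, rose 1.53-fold. FLCN, the folliculin gene and the other one called higher, rose 1.91-fold (adjusted p = 0.0439 in limma). Its treated arrays lay apart, at 5.695 and 6.304, against 5.05 and 5.076 in vehicle, and its SE was 0.22. Of 8 adenylate kinase and AMP deaminase genes, whose enzymes convert the nucleotides that AMPK senses, 1 was higher and 0 lower, with 2 lower at an unadjusted p under 0.05, and the median was 0.04. The higher gene was AK3, of the mitochondrial matrix, with 8.93 and 8.98 in ornithogalum, against 8.53 and 8.47 in vehicle, and its adjusted p = 0.0487 in limma lay close to the threshold. AK3 lost its call in 8 of the 14 alternatives, and so did MARK4, while TSC1 lost it in 5.

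**Figure D4:**
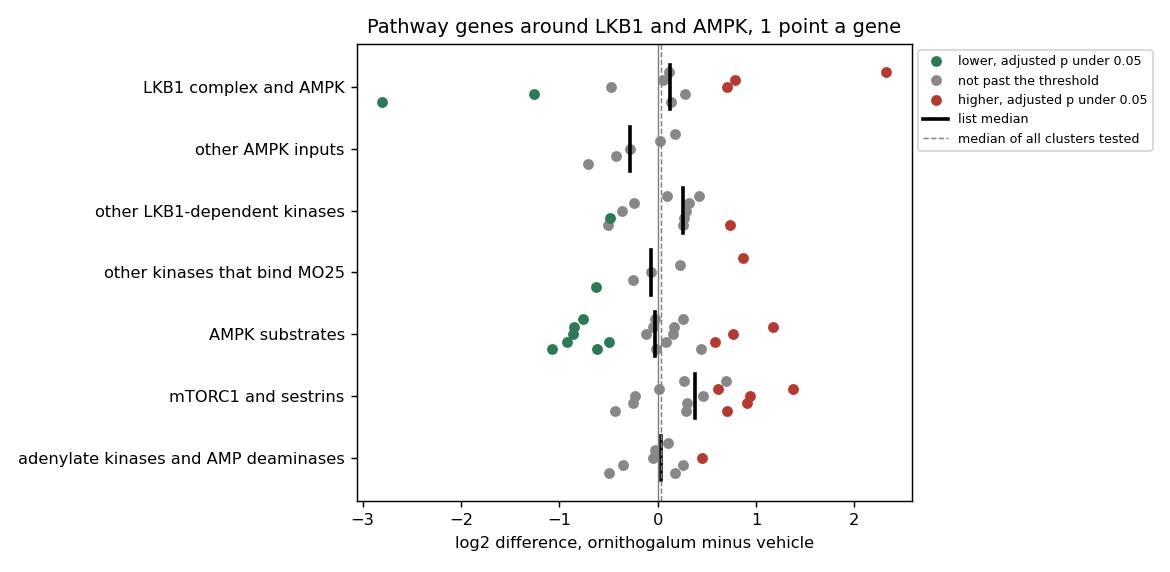
Log2 difference, ornithogalum minus vehicle, of each measured gene in the set of LKB1 complex and AMPK genes and in the 6 pathway lists (points, red where higher and green where lower at an adjusted p under 0.05, spread vertically for legibility), with list medians as black bars and the median of all clusters tested as a dashed line. STRADB at -2.80 and CAB39L at 2.33 lie outside the range of every list, and the mTORC1 and sestrin list has 5 higher and 0 lower genes, while RPTOR and TSC2, both lower, are drawn with the AMPK substrates.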

How the data were processed

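RNA from 4 samples of AGS cells was measured on 4 arrays. The authors deposited log2 expression values per transcript cluster, which the submitters' processing notes credit to RMA and to Affymetrix Expression Console 1.1. How background, scaling and filters were set is not stated there. The table has 33297 clusters. The platform annotation gives 1 symbol to 19460, several to 1754 and none to 12083. Symbols were updated by gene number through RefSeq, which matched 19429. The 21214 clusters with any symbol were fitted with limma 3.58.1 in R 4.3.3 (lmFit, eBayes), two-sided, with Benjamini-Hochberg adjustment over all of them and no filter. The code was tested on simulated data.

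The genes, the pathway and marker lists and the settings were chosen with earlier results of these data known. List genes with several clusters took the one with the highest mean. In each list up to 4 called genes of smallest p are named, with both neighbours of each called member and the 5 clusters nearest in pattern to STRADB and to the member with the largest rise. Genes of AMPK inputs, RPTOR, TSC2, the other kinases that bind MO25 and further genes near STRADB were named after their values were seen. The same holds for FLCN, SP100, TTC33 and CARD6. Alternatives were a replicate block, fits without 1 array, scaling by quantiles, by cyclic loess or by medians, the brighter clusters, other variance priors, array weights and other sets of clusters.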

Additional observations from a re-analysis of the deposited data

How the results depend on the processing

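The 6 calls among the 11 clusters rest on 2 arrays a group. Leaving out 1 array gave 0 to 7 calls, 0 to 7058 over the whole table and 0 to 26 among the 62 pathway genes, in place of 6, 4076 and 20, and the zeros came without vehicle replicate 1 or 2, where the lone vehicle array is assumed to vary like the ornithogalum arrays. At an unadjusted p under 0.05 those fits called 6 of the 11 clusters each, and 4192 and 3986 over the table. Testing all 33297 clusters gave 5, 2644 and 10, and the cause was not tested. With the replicate number as a replicate block limma called 6, 3302 and 15. Deviations of same-numbered arrays correlated at -0.06 between groups. With 2 arrays a group this cannot tell whether same-numbered arrays were handled together. STRADB, CAB39L, PRKAB2 and PRKAG1 kept their direction in all 14 alternatives and lost their calls only without a vehicle array; PRKAB1 also did so over all 33297 clusters. STRADA passed only without ornithogalum replicate 1. Median centring moved the median of all differences to 0.20, in place of 0.04, and STRADB was then at -2.64 and CAB39L at 2.49.

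Of the genes named by rule, those whose sign turned under any alternative were below the threshold. STK11 ran from -0.10 to 0.21 over the fits without 1 array. PRKAA2 was -0.03 after quantile scaling (-0.0258) and after cyclic loess (-0.0326). SETDB2 was 0.05 and CCDC60 0.10 after median centring, and over the fits without 1 array they ran from -0.3068 to 0.0874 and from -0.41 to 0.30. The causes were not tested. Dim clusters such as PRKAA2 limit what can be seen.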

Other observations

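After the fall of TRAK2 beside STRADB had been seen, the 5 nearest measured genes on each side of STRADB were looked up. Of these 10 genes 0 rose and 1, TRAK2, fell in limma at an adjusted p under 0.05, and at an unadjusted p under 0.05 the count was also 1. On the TRAK2 side CASP8, the initiator caspase gene of death receptors, had 6.40 and 6.46 on the ornithogalum arrays, against 6.57 and 6.56 on the vehicle arrays, a log2 difference of -0.13 (SE 0.11). CFLAR, which encodes an inhibitor of that caspase, had 5.44 and 5.36 in ornithogalum, against 5.55 and 5.41 in vehicle. CASP10 had a log2 difference of 0.24 (SE 0.17) and FLACC1 one of -0.22 (SE 0.12). On the other side the largest difference was in the Wnt receptor gene FZD7, with 4.69 and 5.38 in ornithogalum, against 5.84 and 5.53 in vehicle, and it did not pass. CATSPERT, TMEM237, CDK15 and KIAA2012 had log2 differences from -0.14 to 0.33. Among these 11 genes the largest falls were thus those of STRADB, in either of its clusters, and TRAK2.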
